A study of Physcomitrium patens with 21 samples.

Results

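The step from 12 h to 24 h after removal of the shoot tip was examined in stems of the moss Physcomitrium patens, taken from its leafy shoots (gametophores). Its members were chosen by label as the 3 libraries collected 24 h and the 3 collected 12 h after decapitation, 6 of the 21 libraries of the series. Both groups were wild type of the Gransden strain, and each library came from the stems of 5 to 10 pooled gametophores of 4-week-old colonies kept at 23 °C under a cycle of 16 h of light and 8 h of darkness. The remaining decapitated stems, collected at 0, 2 and 6 h (3 libraries each), showed where genes stood before the step. A separate experiment in the same strain held 3 libraries of gametophores given 10 µM of the auxin IAA (indole-3-acetic acid) for 30 min and 3 given solvent (mock), with a shared light cycle and temperature but no colony age among the labels used here. A biotic stress tag stands in the 24 h label and not in the 12 h label, and no such treatment is described. The clock hours of sampling were not among the labels, so time since decapitation and hour of day cannot be told apart.

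A moss gametophore grows from an apical cell at its tip, and its stem carries leaves and can form side branches. Auxin moving down from the tip is known to restrain the formation of side branches in this moss, and removal of the tip removes that source. In plants generally, auxin acts within minutes by releasing transcription factors from repressors, so that many genes respond directly to it.

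The count tables list 32926 gene models by identifier and give no symbols for them, and none was found in the RefSeq gene table. Genes are therefore given by identifier, at most 2 per direction, and otherwise as groups defined by their measured changes. For the same reason the labelled tissue could not be checked against marker genes. No sequence is shown.

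Depth was uneven within the 24 h group, whose libraries held 18995348, 19059443 and 32039288 counted read pairs, against 23131852, 19711928 and 20817206 at 12 h. Levels below are CPM, counts of read pairs relative to library size, after scaling by TMM, a factor that sets the bulk of genes equal between libraries. Across genes, log2 CPM correlated at 0.988 to 0.992 within 24 h, at 0.991 to 0.994 within 12 h and at 0.953 to 0.966 between the groups. On the first principal component of the decapitation series (41.7% of the variance) the 24 h libraries lay at 20.4, 24.6 and 31.4 and the 12 h libraries at -50.8, -55.9 and -51.4. Replicate 3 of 24 h, the deepest library, stood apart from its group on the third component (7.19% of the variance), at -32.4 against -5.60 and -4.28. The share of mapped reads that the authors removed as multi-mapping was 13.1% to 13.6% at 24 h and 12.3% to 12.5% at 12 h, groups that did not overlap (exact two-sided permutation test, p = 0.1, the smallest that 3 against 3 libraries allow). The 100 most abundant gene models held 17.1% to 17.5% of the pairs at 24 h and 14.4% to 14.5% at 12 h, again without overlap (exact two-sided permutation test, p = 0.1).

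Many genes changed between 12 h and 24 h, mostly by small amounts. Of the 20269 genes tested, 9241 (45.6%) were called at a Benjamini-Hochberg adjusted p below 0.05 in edgeR's quasi-likelihood test. Relative to 12 h, 4864 (24%) were higher at 24 h and 4377 (21.6%) were lower. The median absolute log2 change of the called genes was 0.42, and 7905 of them (85.5%) changed less than 2-fold. In bulk stems, a fall in the number of cells of a type and a fall in RNA per cell cannot be told apart.

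Relative to the bulk of genes, large changes were more often increases, a balance that reverses at 2-fold when libraries are scaled by size alone. With a minimum of 2-fold, 866 of all genes tested (4.27%) were higher at 24 h and 470 (2.32%) were lower. At 4-fold the numbers were 278 (1.37%) higher and 71 (0.35%) lower, and at 8-fold 128 (0.632%) higher and 27 (0.133%) lower. At 16-fold 60 (0.296%) were higher and 9 (0.0444%) lower. Among the genes changed at least 2-fold, the libraries of both groups did not overlap for 845 of the 866 and 451 of the 470. Those genes were chosen by the same libraries, so the lack of overlap follows largely from the choice and is no separate support. Over all genes tested, 26.7% had all 24 h libraries above all 12 h libraries and 25.6% had them below.

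The balance of directions depends on the scaling. With library size alone, a setting chosen after the data were seen, the median log2 change of all genes was -0.18 in place of -0.01, and 2827 genes were called higher and 8818 lower. The higher share of the calls was then 24.3% in place of 52.6%. On that scale 661 genes rose and 743 fell by at least 2-fold, so the excess of 2-fold increases over decreases holds relative to the bulk of genes and reverses on library size, while at 16-fold 54 were higher and 11 lower.

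**Figure D1:**
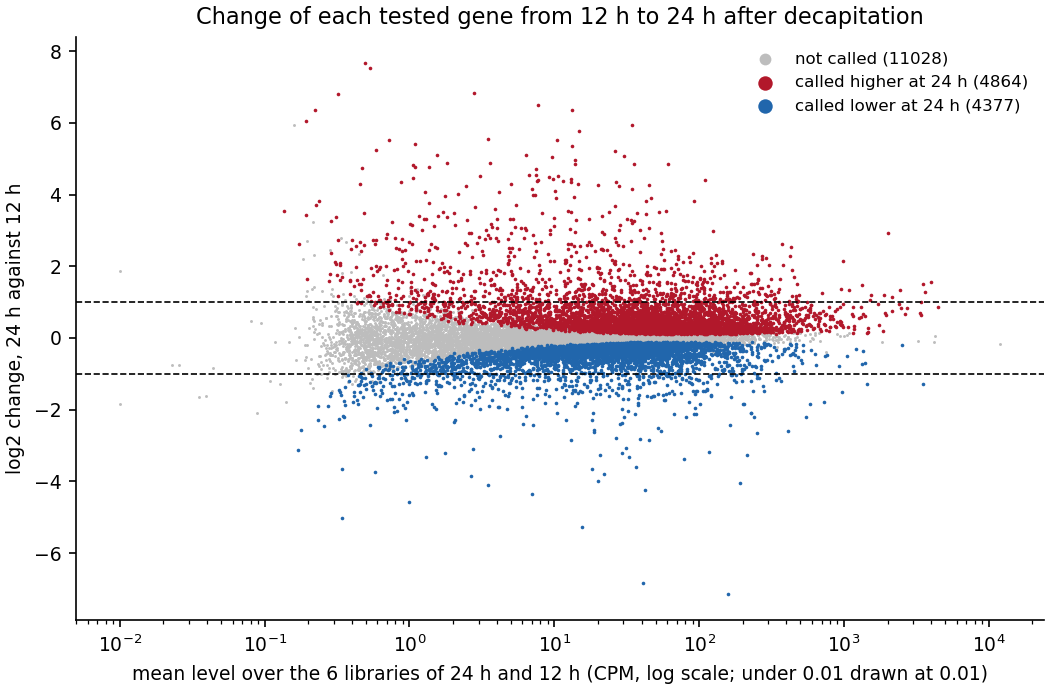
Log2 change at 24 h against 12 h (vertical axis) of the 20269 genes tested, against their mean level over the 6 libraries in CPM (horizontal log axis). Red points are the 4864 genes called higher at 24 h, blue points the 4377 called lower, grey points those not called, and the dashed lines mark 2-fold. Points beyond a log2 change of 4 are more numerous above than below, 60 against 9.

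Genes were named only if called, with no overlap between the groups and a mean of at least 5 CPM over the 6 libraries. Among such increases, the largest fold and the largest gain in counts belonged to different genes. Without these conditions the largest increase was 203-fold, in a gene not named here. Pp3c3_9610V3.1, a gene model of 3031 bases, had 16.1, 14.4 and 15.6 CPM in the 24 h libraries and 0.164, 0.193 and 0.136 CPM in the 12 h libraries. Every 24 h library was far above every 12 h library, and both groups were tight. In edgeR this was a difference of 6.50 on the log2 scale, with an SE of 0.157 and an adjusted p of 1.38e-13 (all adjusted p below are by Benjamini-Hochberg over the genes tested). The 12 h values rest on 4, 4 and 3 read pairs, so the size of the fold is less certain than its presence. Counted as single reads in place of pairs, the log2 change of Pp3c3_9610V3.1 was 4.61 (edgeR, adjusted p = 5.22e-13).

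Before the step this gene had declined without a break. Pp3c3_9610V3.1 stood at 12.1 CPM ± 0.735 in stems of 0 h, had dropped to 4.97 CPM ± 0.402 in those of 2 h and reached 1.31 CPM ± 0.0939 in those of 6 h (± SD of 3 libraries). The 24 h level was above that of 0 h by log2 0.34 (SE 0.0873, edgeR adjusted p = 0.00696). In the auxin experiment Pp3c3_9610V3.1 was also higher with IAA than with mock, by log2 0.98 (SE 0.276, edgeR adjusted p = 0.0207).

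Pp3c9_5310V3.1, of 2204 bases, gained the most in CPM. It reached 5820, 5751 and 6354 CPM at 24 h, against 1988, 2074 and 2034 CPM at 12 h. All libraries of 24 h lay above those of 12 h, with a log2 difference of 1.56 (SE 0.0458, edgeR adjusted p = 9.44e-13). Per kb of gene model, the level was 2609 to 2883 CPM at 24 h and 902.0 to 941.1 CPM at 12 h. Its lowest point came earlier than that of Pp3c3_9610V3.1, with a mean of 4466 CPM at 0 h, 3071 at 2 h and 1654 at 6 h. At 24 h Pp3c9_5310V3.1 was above 0 h by log2 0.42 (SE 0.0448, edgeR adjusted p = 8.77e-06), and with IAA it was above mock by log2 0.67 (SE 0.102, edgeR adjusted p = 0.000952).

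Among decreases the same contrast of fold and amount appeared. Pp3c11_5230V3.1, of 3288 bases, had 2.11, 2.40 and 2.18 CPM at 24 h, against 318.8, 335.4 and 287.8 CPM at 12 h. The groups were far apart and narrow, with a log2 difference of -7.14 (SE 0.0918, edgeR adjusted p = 1.16e-16). Its 24 h level was also below that of 0 h (2.84, 3.27 and 2.71 CPM), the log2 difference being -0.40 (SE 0.126, edgeR adjusted p = 0.0363). Pp3c11_5230V3.1 was called lower with IAA than with mock as well (edgeR adjusted p = 0.00498).

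Pp3c7_6560V3.1, of 1216 bases, lost the most in CPM. It stood at 1880.5, 2012 and 2223 CPM at 24 h, against 4811, 5294 and 4861 CPM at 12 h, with no overlap. Per kb this was 1546 to 1828 CPM at 24 h and 3957 to 4354 CPM at 12 h. The log2 difference was -1.29 (SE 0.0635, edgeR adjusted p = 2.24e-10). Against 0 h, where it averaged 1975 CPM ± 26.6 (SD, n = 3), the 24 h level of Pp3c7_6560V3.1 was not called, differing by log2 0.05 (SE 0.0625, edgeR adjusted p = 0.606). With IAA, Pp3c7_6560V3.1 was below mock by log2 -0.31 (SE 0.0944, edgeR adjusted p = 0.0265).

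**Figure D2:**
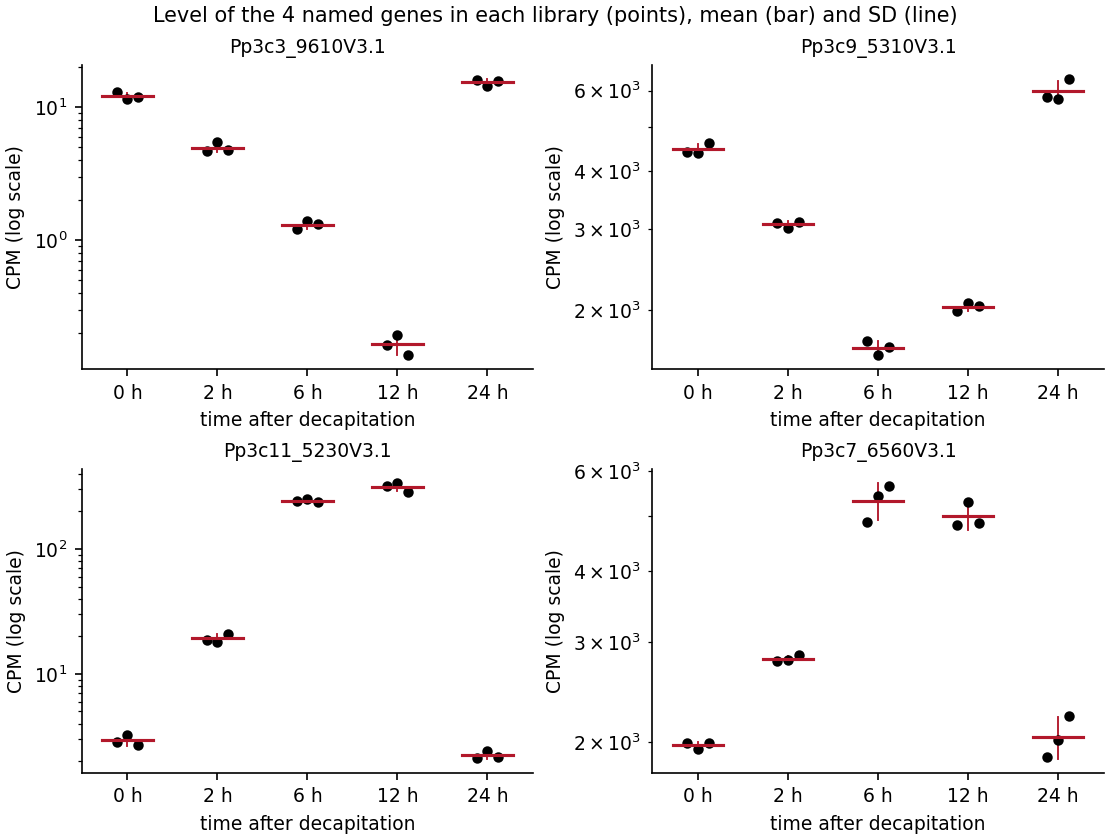
Level in CPM (log axis) of the 4 named genes at 0, 2, 6, 12 and 24 h after decapitation. Points are single libraries, red bars the mean and red lines the SD of 3 libraries. Pp3c3_9610V3.1 and Pp3c9_5310V3.1 are higher at 24 h than at 12 h and above 0 h, and Pp3c11_5230V3.1 and Pp3c7_6560V3.1 are lower at 24 h than at 12 h.

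The steepest increases were shared by a group of genes whose level also varied widely between libraries of the same time. Over the 60 genes that rose at least 16-fold, the median level was 7.59, 6.46 and 20.9 CPM in the 24 h libraries, against 0.511, 0.242 and 0.614 CPM in the 12 h libraries. Replicate 3 of 24 h was the highest of its group for 51 of them (85.0%), against 36.5% of all genes tested. Smaller rises showed this too, with 83.8% at 8- to 16-fold, 74.0% at 4- to 8-fold and 56.8% at 2- to 4-fold. For these 60 genes the ratio of replicate 3 to the mean of replicates 1 and 2 had a median of 2.73, against 1.01 for all genes tested. Of the 60, 5 had no pair at 12 h and 6 had 1 to 3 pairs. The median log2 change was 4.76 as fitted and 4.54 with those 5 genes set to a floor of 3 pairs over the 12 h group.

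The same genes varied together at times that took no part in the choice. At 0 h, replicate 1 was the highest for 54 of the 60 genes, against 36.5% of all genes tested, and their medians were 31.4, 15.4 and 12.2 CPM. At 6 h, replicate 1 was the lowest for 56 of the 60 (93.3%), against 34.5% of all genes, with medians of 1.92, 8.54 and 8.36 CPM. The median SD of log2 CPM over the 3 libraries was 0.86 for these genes at 24 h and 0.53 at 12 h, against 0.10 and 0.09 for all genes tested. At 0, 2 and 6 h it was 0.65, 0.52 and 1.23, against 0.09, 0.08 and 0.09. The pattern was not particular to the steepest genes and was weaker in smaller rises. Replicate 1 of 0 h was the highest for 76.5% of genes 8- to 16-fold higher, 55.3% at 4- to 8-fold and 42.0% at 2- to 4-fold. Replicate 1 of 6 h was the lowest for 80.9%, 62.0% and 42.9% of these groups.

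Part of the size of these increases rests on replicate 3 of 24 h. Without it, 52 of the 60 genes were still called higher and 28 were still at least 16-fold higher, and their median log2 change was 3.99. Counting anew without that library, 33 genes were at least 16-fold higher. With replicate 3 thinned at random to the depth of replicate 1, an alternative chosen after the data were seen, the number was 59. Of the 866 genes at least 2-fold higher, 785 were still called without replicate 3 of 24 h and 743 were still at least 2-fold higher.

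The steepest decreases varied less between libraries of a time than the steepest increases, and more than the bulk of genes. Over the 9 genes that fell at least 16-fold, the median level was 0.778, 0.447 and 0.714 CPM at 24 h, against 33.7, 34.6 and 23.0 CPM at 12 h. All 9 were still called lower whichever of the 6 libraries was left out. Their median SD of log2 CPM was 0.26 at 24 h and 0.14 at 12 h, against 0.86 and 0.53 for the 60 genes that rose as steeply and 0.10 and 0.09 for all genes tested. At 0, 2 and 6 h it was 0.29, 0.20 and 0.19. These SDs are compared across unlike levels. All genes tested had medians of 21.8 to 22.0 CPM in the 24 h libraries and 22.0 to 22.1 CPM in the 12 h libraries. The medians of the 9 genes at 24 h and of the 60 steepest risers at 12 h were far lower. How much low counts add to these SDs was not tested. Replicate 3 of 24 h was the highest of its group for 3 of the 9. The median log2 change of the 9 was -4.57, and without replicate 3 of 24 h it was -5.85.

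**Figure D3:**
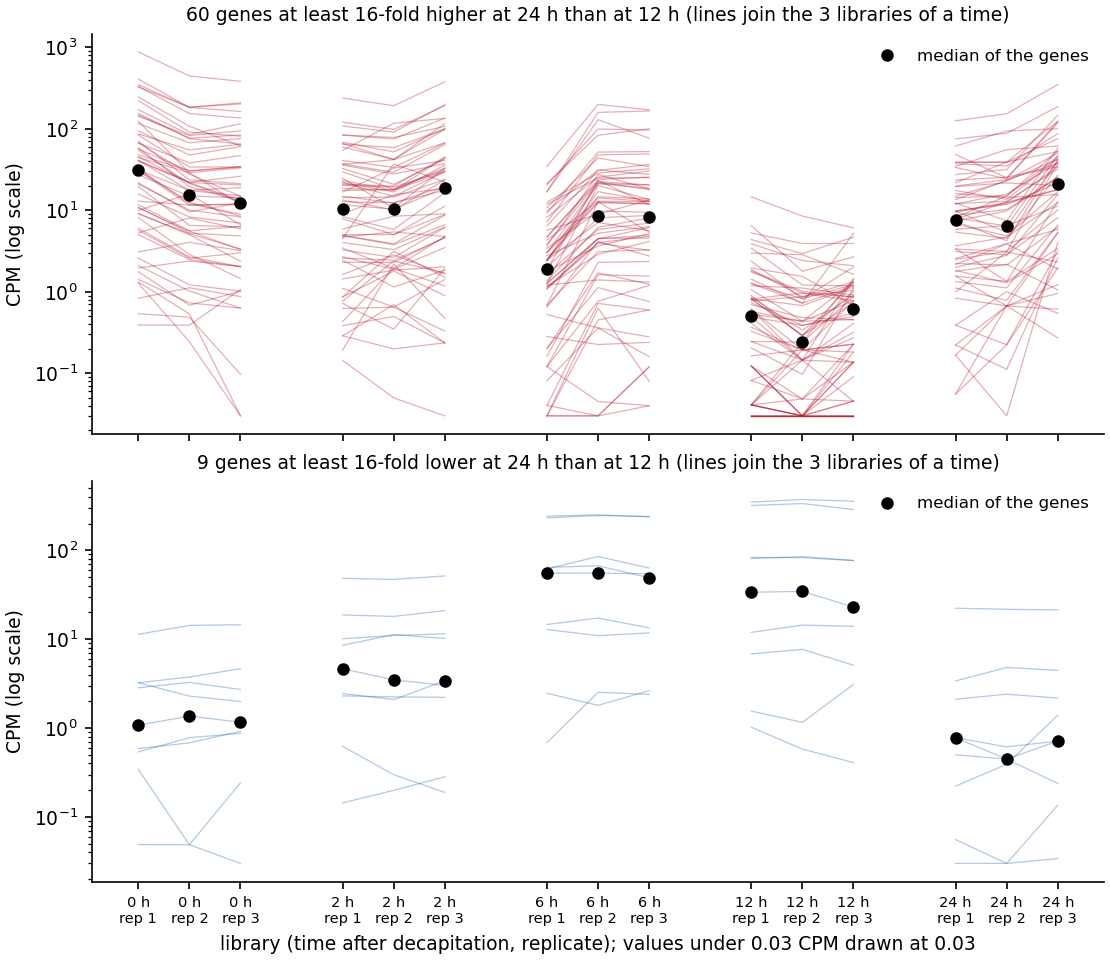
Level in CPM (log axis) in each of the 15 libraries of decapitated stems for the 60 genes at least 16-fold higher (top, red) and the 9 genes at least 16-fold lower (bottom, blue) at 24 h than at 12 h. Lines are genes and join libraries of 1 time, and black points are medians over the genes. In the top panel most lines tilt together, with replicate 3 high at 24 h, replicate 1 low at 6 h and replicate 1 high at 0 h, while the lines at 6 h and 12 h in the lower panel are mostly flat.

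Genes that rose in the step had mostly been below their starting level at 12 h, and the larger the rise, the lower that level. The median log2 difference from 0 h of the 866 genes that rose at least 2-fold was -0.41 in stems of 2 h, -0.98 by 6 h, -1.59 by 12 h and 0.00 by 24 h. Over all genes tested these medians were 0.00, 0.01, 0.01 and -0.01. The comparison of 12 h with 0 h shares the 12 h libraries with the step, and that of 24 h with 0 h shares the 24 h libraries, so the last 2 medians are fixed in part by the choice of genes. At 12 h the median against 0 h was -1.23 for genes 2- to 4-fold higher in the step, -2.80 at 4- to 8-fold, -4.13 at 8- to 16-fold and -5.53 at 16-fold or more. At 24 h these groups stood at 0.13, -0.33, -0.76 and -0.80.

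Genes that fell in the step had been raised by 6 h and were at a similar height at 12 h. For the 470 genes that fell at least 2-fold, the median log2 difference from 0 h was 0.49 in stems of 2 h, 1.02 by 6 h, 1.02 by 12 h and -0.37 by 24 h. For the 9 steepest, the medians were 1.85, 4.36, 4.19 and -0.77. The median of the risers was lowest at 12 h in each size group. Among the fallers the median was highest at 6 h in 3 of the 4 size groups. Risers and fallers were chosen by their 12 h and 24 h libraries, so where the medians at these times lie is fixed in part by the choice.

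**Figure D4:**
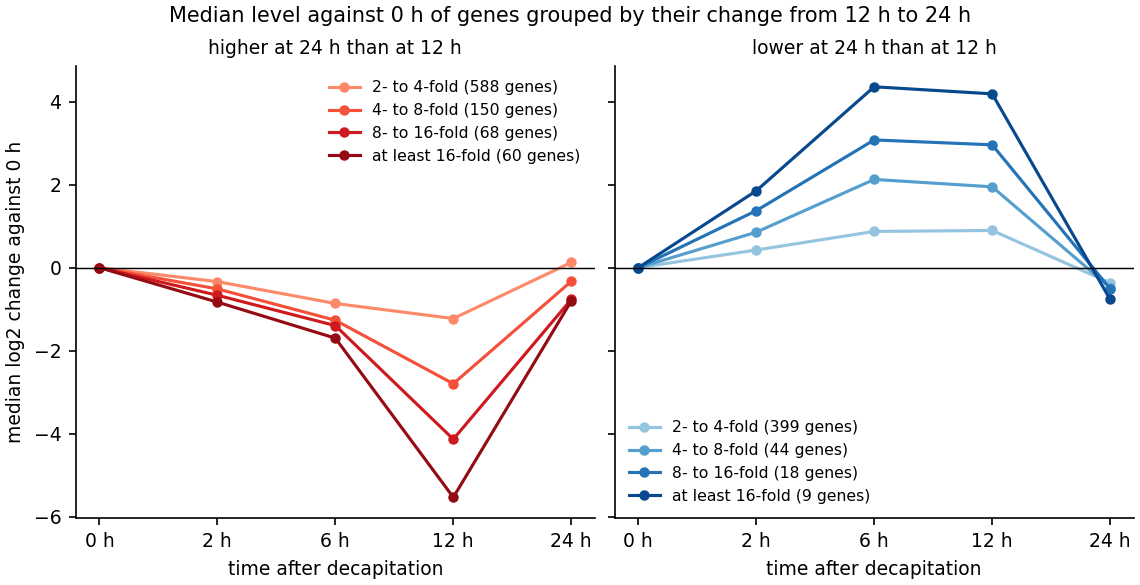
Median log2 change against 0 h (vertical axis) at 2, 6, 12 and 24 h of genes grouped by the size of their change from 12 h to 24 h, with 0 h drawn at 0. The left panel holds genes higher and the right panel genes lower at 24 h than at 12 h, and darker lines are larger changes. Medians of the 60 steepest risers reach -5.53 at 12 h and -0.80 at 24 h, and those of the 9 steepest fallers 4.36 at 6 h and -0.77 at 24 h.

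Calls against 0 h showed the same genes on different sides of their starting level. At 12 h, 771 of the 866 genes (89.0%) were called lower than at 0 h and 12 higher, against 25% lower and 24.8% higher among all genes tested. At 24 h, 186 of the 866 (21.5%) were called lower than at 0 h and 277 higher, against 16.5% lower and 18.6% higher among all genes. Of the 470 genes that fell at least 2-fold, 340 (72.3%) were called higher at 12 h than at 0 h and 11 lower. At 24 h, 37 of the 470 were called higher than at 0 h and 197 (41.9%) lower. The calls at 12 h and at 24 h share the 0 h libraries with each other and other libraries with the step, so these counts describe the genes and are no separate support.

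The change from 0 h to 6 h uses no library of the step, and the 2 changes ran in opposite directions. Of the 706 genes that had fallen at least 2-fold by 6 h (3.48% of all genes tested), 503 (71.2%) were higher at 24 h than at 12 h and 9 (1.27%) were lower, against 24% and 21.6% of all genes tested. Their median log2 change in the step was 1.18. Of the 465 genes at least 2-fold higher at 6 h (2.29%), 386 (83.0%) were lower in the step and 2 were higher, with a median of -1.04. Without a fold threshold, 3110 genes were lower at 6 h and higher in the step, which is 65.1% of the genes lower at 6 h (23.6% of all genes) and 63.9% of those higher in the step. Likewise 2887 genes were higher at 6 h and lower in the step, 59.4% and 66.0% of those lists. In the same direction both times were 141 higher and 113 lower genes.

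Across the 20269 genes, the log2 changes of the 2 comparisons had a Pearson correlation of -0.68 and a Spearman correlation of -0.64. This is a description across genes, which are not independent, and the fold changes come from 1 fit with a shared estimate of spread. Against the change from 0 h to 2 h the correlations were -0.43 and -0.41. When the 2 changes were set against each other gene by gene in edgeR, the change in the step was above the change to 6 h for 5804 genes (28.6%) and below it for 5840 (28.8%), at an adjusted p below 0.05.

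Genes that IAA changed at least 2-fold in the separate experiment moved in the step mostly in the direction in which IAA moved them. Of the 924 genes that IAA raised at least 2-fold over mock and that were tested in both experiments (4.67% of the 19766 in both), 563 (60.9%) rose and 65 (7.03%) fell between 12 h and 24 h, against 24% and 21.6% of all genes tested, and their median log2 change was 0.60. By at least 2-fold in the step, 323 were higher, against 4.27% of all genes, and 21 were lower. Of the 269 genes (1.36%) that IAA lowered at least 2-fold, 141 (52.4%) were lower and 32 (11.9%) higher in the step, with a median of -0.48. As a share of the step, the 323 genes make up 37.3% of the 866 at least 2-fold higher, and 69 genes at least 2-fold lower in IAA make up 14.7% of the 470.

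The share raised by IAA was high in every size group of the step. Of the genes tested in both experiments, IAA raised 360 of 564 (63.8%) among those 2- to 4-fold higher in the step, 101 of 131 (77.1%) at 4- to 8-fold, 37 of 56 (66.1%) at 8- to 16-fold and 37 of 47 (78.7%) at 16-fold or more, against 21.4% of all genes tested. The median log2 change in IAA was 0.60, 1.33, 1.74 and 2.96 in these groups. Replicate 3 of 24 h is the highest library of its group for most of the steepest of these genes, as given above. Among genes at least 2-fold lower in the step, IAA lowered 181 of 434 (41.7%), against 18.5% of all genes.

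Genes were also grouped by both the change to 6 h and the response to IAA. For comparison, 24% of all genes tested were higher and 21.6% lower in the step. Of 253 genes at least 2-fold lower at 6 h and at least 2-fold higher in IAA, 232 (91.7%) were higher in the step and 0 lower, with a median log2 change of 1.79. Of 203 genes at least 2-fold lower at 6 h that were not called in IAA, 107 (52.7%) were higher and 6 lower, with a median of 0.73. Conversely, 294 genes at least 2-fold higher in IAA were not called at 6 h, and of these 89 (30.3%) were higher and 37 lower, with a median of 0.14. Of 79 genes at least 2-fold higher at 6 h and at least 2-fold lower in IAA, 73 (92.4%) were lower in the step, and of 156 raised at 6 h and not called in IAA, 118 (75.6%) were lower. Whether these shares differ was not tested.

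**Figure D5:**
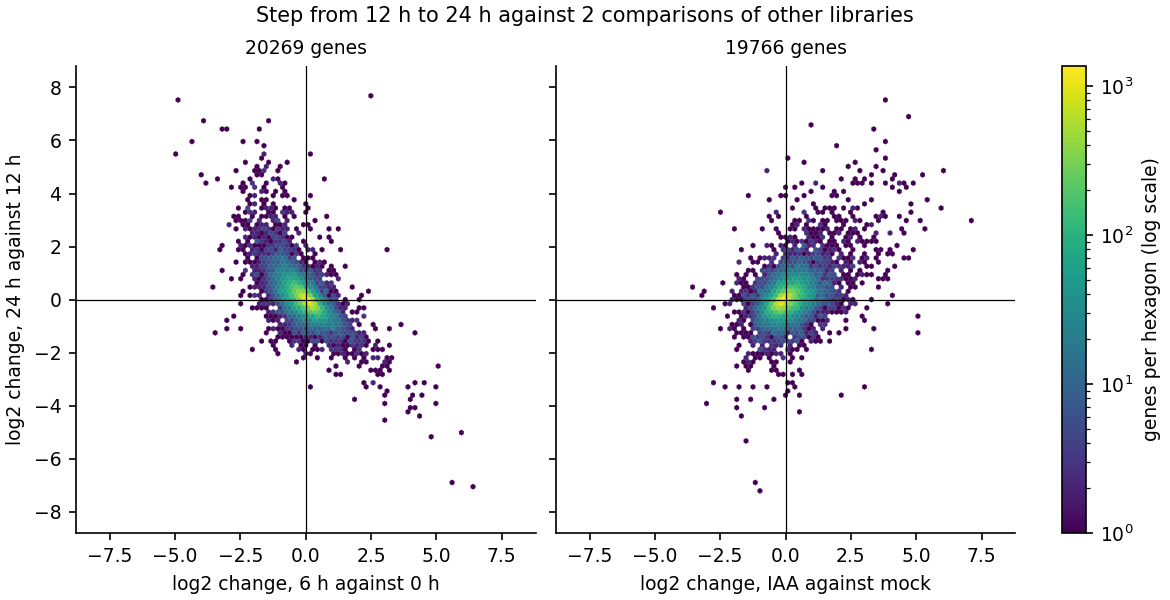
Log2 change at 24 h against 12 h (vertical axis) against the log2 change at 6 h against 0 h (left, 20269 genes) and in IAA against mock (right, 19766 genes). Colour is the number of genes per hexagon on a log scale. The cloud runs downward on the left, with a Pearson correlation of -0.68, and upward on the right, with 0.47.

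Together the 866 genes that rose at least 2-fold held 9.29%, 9.53% and 10.3% of all pairs in the 24 h libraries, against 3.89%, 3.96% and 3.99% in the 12 h libraries. In libraries that took no part in the choice, they held 8.89% to 9.72% at 0 h, 7.08% to 7.55% at 2 h and 4.53% to 5.07% at 6 h. The 470 genes that fell at least 2-fold held 1.13%, 1.18% and 1.14% at 24 h, against 3.76%, 3.83% and 3.53% at 12 h. Their shares at the earlier times were 1.42% to 1.48% at 0 h, 2.31% to 2.34% at 2 h and 3.95% to 4.09% at 6 h. The 60 steepest risers held 0.0816%, 0.0919% and 0.218% at 24 h, so most of the gain in counted RNA lay in genes with smaller folds.

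Abundant genes were called higher more often than others, while at 2-fold the share was largest in the least and the most abundant groups. When genes were split into 5 groups of equal size by mean CPM per kb over the 6 libraries, 46.2% of the most abundant group were called higher and 17.1% lower. In the next 4 groups, in descending order of level, 25.5%, 20.9%, 15.6% and 11.8% were called higher. At least 2-fold higher were 5.50% of the most abundant group and, in the same descending order, 3.01%, 2.96%, 4.12% and 5.77% of the others. The median log2 change was 0.13 in the most abundant group and lay between -0.08 and -0.01 in the others. Calls in the lower direction were most frequent in the middle group (27.0%).

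Genes with large changes were somewhat shorter than the rest. Gene models at least 2-fold higher had a median length of 1941 bases and those at least 2-fold lower 2062, against 2247 for all genes tested. In the 8- to 16-fold risers it was 1403. When genes were split into 5 groups by length, 2.20% of the longest group and 5.42% of the shortest rose at least 2-fold. Grouped by the first part of the identifier, 27 prefixes held 100 or more tested genes, and the share at least 2-fold higher lay between 3.18% (Pp3c18) and 5.91% (Pp3c4). The share at least 2-fold lower lay between 1.31% (Pp3c21) and 4.87% (Pp3c22).

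Few genes were found at one time alone. No pair was seen at 12 h for 34 gene models that had pairs in all 24 h libraries, and the most any model with none at 12 h reached was 83 pairs over the 24 h group. Conversely, 52 models had pairs in all 12 h libraries and none at 24 h, with at most 12 pairs. Of the 32926 models, 12657 were not tested for want of counts, of which 5235 had at least 1 pair in the 6 libraries, and the untested models held 0.0435% of the pairs.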

How the data were processed

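Poly(A) RNA from 4 µg of total RNA per sample went into stranded paired-end TruSeq libraries, per the labels' protocols. The submitters' processing notes name Bowtie2 without a version, and the genome build and annotation are not given in the sources used here. The deposited values are raw counts of read pairs per gene model; per the file headers, multi-mapping reads were removed and both mates had to lie on 1 model on opposite strands. Near-identical genes are therefore undercounted, and antisense overlaps may not be separated. The labels call the libraries biological replicates.

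For the 15 decapitation libraries, counts were fitted with edgeR 4.0.16 in R 4.3.3 (filterByExpr, TMM, glmQLFit, glmQLFTest, group as the only term), and the 6 auxin libraries in the same way. P-values were adjusted by Benjamini-Hochberg over all genes tested and called below 0.05. SE was obtained as log2 change over root F, and 2 was the prior count for CPM on the log2 scale. Named genes are, per direction, the largest fold and the largest CPM difference among called, non-overlapping genes averaging 5 CPM or more. Members, lists and tests were chosen with earlier results of these data known.

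Deviations from the group means of same-numbered 24 h and 12 h libraries correlated at 0.18, 0.11 and 0.25 (different numbers, -0.21 to 0.07). Replicate numbers were therefore used as a block in an alternative fit, while the main fit did not pair the libraries. Replicates differed by more than sampling noise (chi-square per degree of freedom 3.47 to 10.96). Alternatives were RLE size factors, 2 filters, DESeq2 1.42.0, the replicate block, other sets of libraries, reads in place of pairs, glmTreat and leaving out each library. In simulated counts for 24 h against 12 h (20144 genes), recovery was 61.2% at a true log2 change of 0.5, 97.0% at 1 and 100% at 2, with 5 of 19944 unchanged genes called. The simulation changed 200 genes, picked among those with a mean of at least 1 CPM, so recovery of genes below that level was not measured. It held all other genes level over time and drew each gene independently. In the data 45.6% of genes were called and the steepest risers varied together, so these rates may not carry over.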

Additional observations from a re-analysis of the deposited data

How the results depend on the processing

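The counts of genes higher, lower and at least 2-fold changed at 24 h against 12 h kept within 1.5 times of the values above under RLE, both filters, DESeq2, the replicate block, all 21 or only 6 libraries, reads in place of pairs, thinning and each library left out. The replicate block gave 5031 higher and 4441 lower genes and changed no call of a named gene. With library size alone, 2827 genes were higher, 8818 lower and 743 at least 2-fold lower. Tested against a fold of 2 with glmTreat, 431 genes were higher and 168 lower. Without a filter, 20 genes were at least 16-fold lower. Using all genes called by IAA, 2240 raised genes were higher and 1745 lowered genes lower in the step.

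Leaving out single libraries gave 4276 to 4665 higher and 3772 to 4016 lower genes, and 807 to 933 higher and 454 to 522 lower at 2-fold. At 16-fold the ranges were 33 (without replicate 3 of 24 h) to 71 higher and 8 to 12 lower. Of the 4864 higher and 4377 lower genes, 3684 and 3046 were called in all 6 leave-outs. For genes at least 2-fold lower at 6 h and higher in the step, 503 in the main fit, the range was 441 to 553. For genes at least 2-fold higher at 6 h and lower in the step, 386 in the main fit, it was 364 to 396. For the 2-fold auxin classes, 563 and 141 in the main fit, the ranges were 518 to 586 and 114 to 160. The 4 named genes kept their direction and call in all 17 alternatives. Why these values moved was not tested, beyond the shift of scale given above.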
